A study of Saccharomyces cerevisiae with 6 samples.

Results

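HXT1 to HXT7 encode the hexose transporters of budding yeast, membrane proteins that carry glucose and other hexoses into the cell by facilitated diffusion. These 7 genes were taken by name, and their loci by approximate position on the sacCer1 build, with 1 kb added on each side. HXT4, HXT1 and HXT5 lie on chromosome 8 (286998 to 296447), HXT7, HXT6 and HXT3 on chromosome 4 (1154216 to 1164662) and HXT2 on chromosome 13 (288079 to 289704). The 3 loci span 27523 bp with their flanks and held 132 of the 54902 consensus nucleosomes of the genome, of which 126 were deep enough to be tested, among 53684 in all.

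Yeast carries several hexose transporters that differ in their affinity for glucose, and it changes which of them it makes with the sugar supply. The membrane sensors Snf3 and Rgt2 report extracellular glucose and act through Mth1 and Std1 on the repressor Rgt1, which sits on HXT promoters when glucose is absent, while Mig1 represses some high-affinity transporters when glucose is abundant. HXT1 is the low-affinity transporter made in high glucose, and HXT3 is another low-affinity transporter made in glucose. HXT2, HXT6 and HXT7 are high-affinity transporters that high glucose represses, HXT4 is induced by low glucose, and HXT5 is made by slowly growing or starved cells. HXT6 and HXT7 are near-identical copies.

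Nucleosomes were mapped by single-end MNase-seq in 6 libraries: micrococcal nuclease digests the linker DNA, and the fragments that nucleosomes protect are sequenced from 1 end. The H3 shutoff strain (DCB200.1) has HHT1 deleted and its other histone H3 gene, HHT2, under the GAL1 promoter, so that a move from 2% galactose to 2% dextrose stops H3 synthesis. Each H3 shutoff culture (n = 2) was sampled right after the change of medium, called 0 h, and again 3 h later, as was 1 culture of wildtype cells (YEF473A, n = 1). All cells had grown in galactose and were then given dextrose, so the sugar changed in both strains, while the H3 shutoff cells also arrest in G2/M after 1 round of DNA synthesis. Loss of H3 and that arrest cannot be told apart in these libraries.

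Each library held 5000001 reads, of which 46.2% to 64.5% lay on distinct intervals. Because the totals are equal, an even loss of nucleosomes over the genome would leave every count as it was, so each count is a share of its library. The length to which reads were extended differed between the groups, being 170 and 172 bp in the 0 h libraries of H3 shutoff, 158 and 165 bp in its 3 h libraries and 174 bp in both wildtype libraries, and its part in the results was not tested. In H3 shutoff the 3 loci together held 12443 and 12676 read centres before depletion (0 h) and 10549 and 10782 after it (3 h). The wildtype counts were 13331 (0 h) and 14138 (3 h). The H3 shutoff loci thus held fewer reads at 3 h in both replicates and the wildtype loci held more.

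Positions within the clusters are approximate, to a degree that was not measured, since the coding regions of HXT1 and HXT6 were placed from the data. HXT1 was centred between HXT4 and HXT5 (290842 to 292554), and HXT6 was placed 5392 bp above HXT7 (1159608 to 1161320), the lag at which the pattern of read centres over HXT7 recurred most closely. That recurrence was weak, with r = 0.12 over positions as the mean of the 6 libraries (0.05 to 0.19), against 0.06 at the next best of 3001 lags. That next lag was 4951 bp, a placing of HXT6 that the moves of 100 bp below do not reach. All genes but HXT2 read towards lower coordinates. Moving every coding region by 100 bp either way left the H3 shutoff change of HXT2 between -0.46 and -0.49 on the log2 scale, and that of HXT4 between -0.51 and -0.53. For HXT6 the H3 shutoff change of -0.22 became -0.12 at 100 bp lower and -0.19 at 100 bp higher, and its wildtype change of 0.28 became 0.04 at 100 bp higher. For HXT1 the H3 shutoff change of 0.02 became 0.04 and -0.01.

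**Figure D1:**
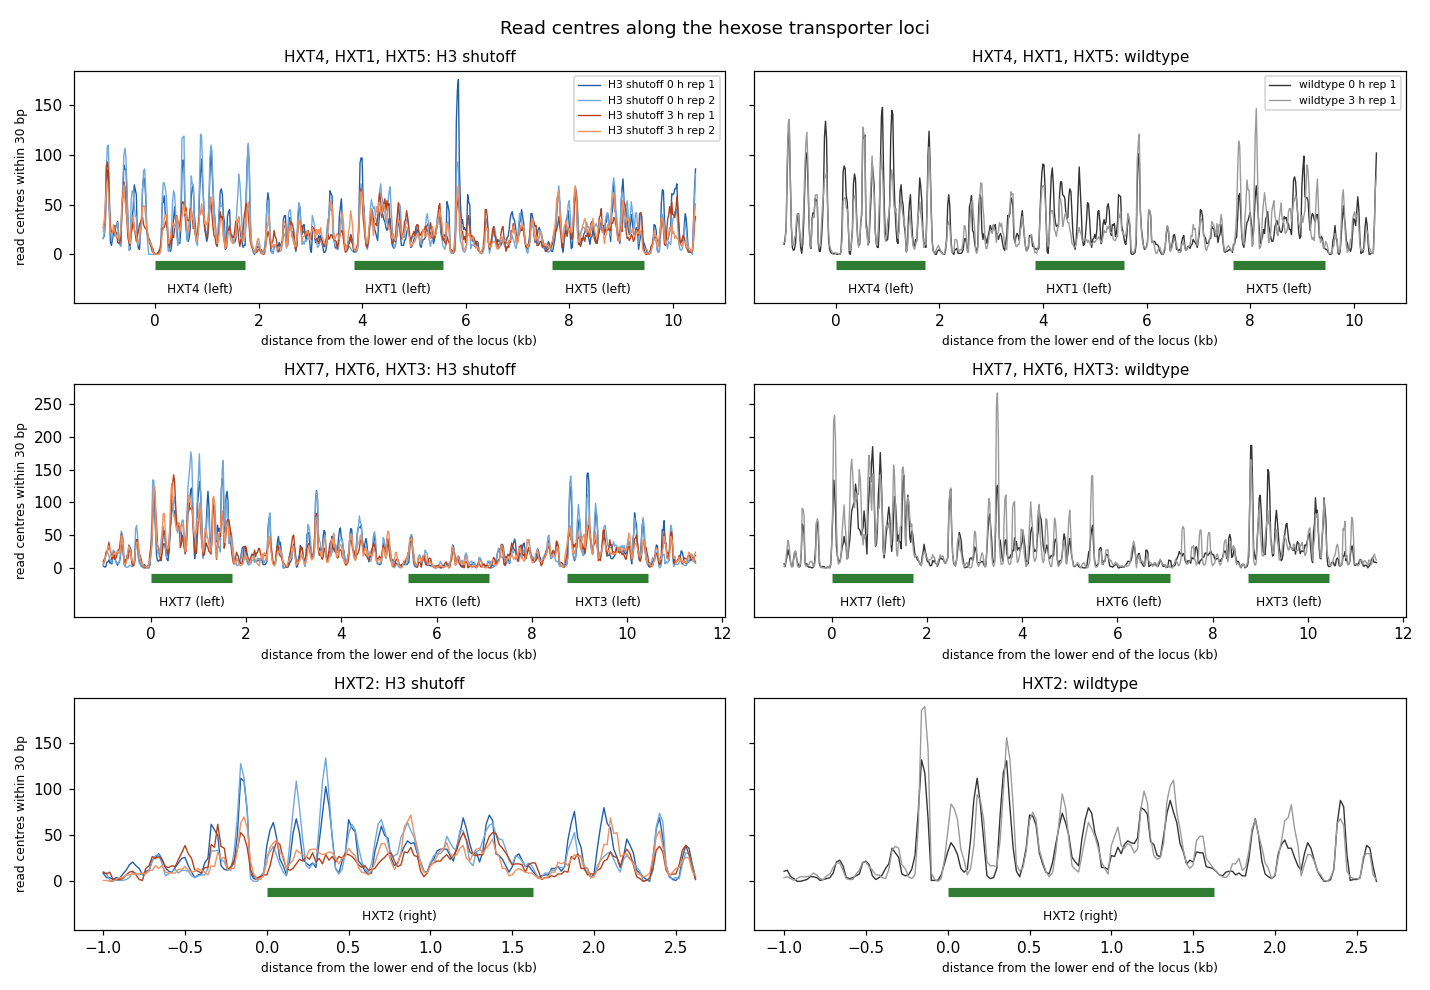
Read centres within 30 bp of each position along the 3 loci, by distance from the lower end of the locus in kb, for H3 shutoff (left) and wildtype (right). Lines are single libraries, green bars are coding regions with the direction of reading. In H3 shutoff the 3 h lines run flatter over HXT2 and HXT4 than the 0 h lines, and HXT7 stands above HXT6 in every library.

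The level of each coding region was read centres per kb over the mean of the whole library. HXT7 was highest in all 6 libraries, at 2.20 to 3.35 times the genome mean, and HXT6 lowest, at 0.32 to 0.56 times. The 5 others lay between, with means of 1.61 for HXT3, 1.43 for HXT2, 1.37 for HXT4, 1.25 for HXT5 and 1.14 for HXT1. HXT3 lay above HXT1, HXT4 and HXT5 within each of the 6 libraries and above HXT2 in 5 of them, while the order of HXT1, HXT2, HXT4 and HXT5 changed between libraries. Per length, the 500 bp before the coding start were lower than the coding region for HXT7 (0.44 to 0.68 times the genome mean), HXT5 (0.48 to 0.72) and HXT3 (0.47 to 1.06), whose ranges did not overlap those of their coding regions. Within each library they were also lower for HXT2 (0.80 to 1.34) and HXT4 (0.59 to 1.07), whose ranges did overlap. For HXT6 they were higher in each library (0.46 to 0.67), and for HXT1 the sign changed between libraries.

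HXT6 and HXT7 share most of their sequence, so their reads were also compared as a pair. HXT6 took 12.4% of the reads of the pair in H3 shutoff at 0 h in replicate 1 and 13.9% in replicate 2 (95% Clopper-Pearson interval of the latter 12.5% to 15.4%). At 3 h the shares were 12.8% and 13.2%, and in wildtype they were 14.1% at 0 h and 14.4% at 3 h. All intervals here cover counting error only. The share was thus nearly the same in every library, while HXT7 held 5.95 to 7.04 times as many reads as HXT6. Spread evenly over both copies, the pair stood at 1.26 to 1.96 times the genome mean, in the range of the other transporters. Assignment of reads shared by the copies and a true difference in occupancy cannot be told apart, so HXT6 and HXT7 are given singly only as the files assign them.

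**Figure D2:**
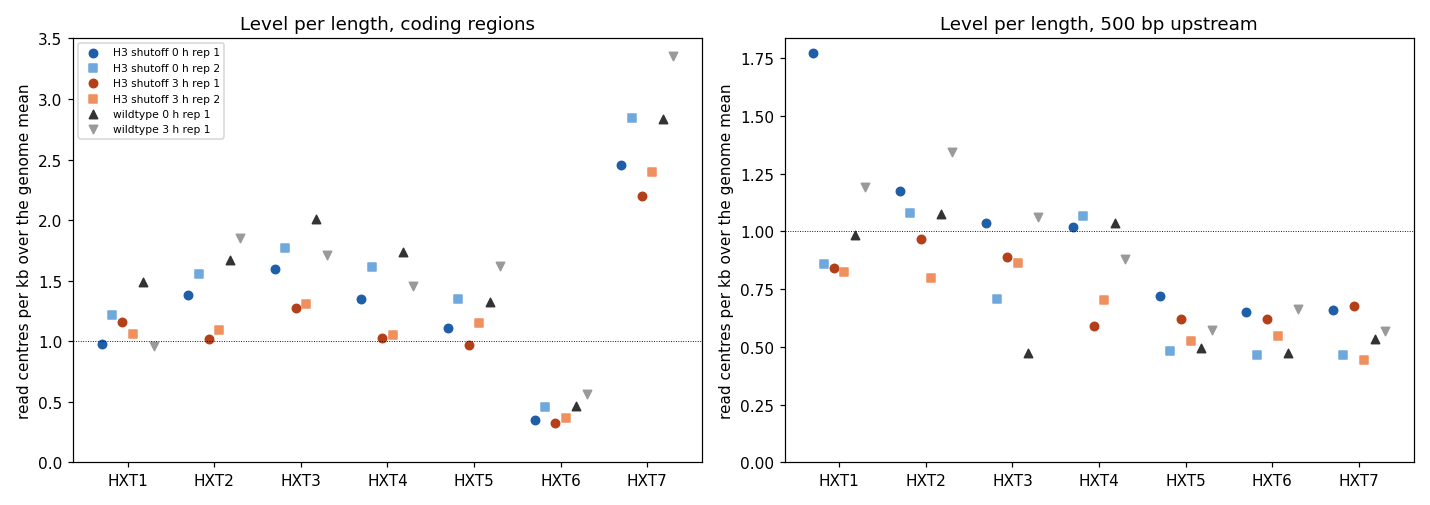
Read centres per kb over the genome mean of the same library (dotted line at 1) for the 7 coding regions (left) and the 500 bp upstream of each (right), 1 point per library. HXT7 lies at 2.20 or more and HXT6 at 0.56 or less in all libraries, and the upstream window of HXT1 is at 1.77 in 1 library only.

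The first comparison asked which transporter genes lost or kept nucleosomes as H3 was depleted. HXT2, HXT3 and HXT4 fell over their coding regions, by 0.49, 0.40 and 0.52 on the log2 scale in a fit across the genome. No member rose. In both H3 shutoff pairs 6 of the 7 coding regions had fewer read centres at 3 h, and HXT1 had more in 1 pair and fewer in the other. The share of all tiles lower in both pairs was not counted. Nor was the share of tiles, of 1700 or 500 bp, whose 0 h and 3 h counts did not overlap in H3 shutoff. Where counts of a gene are said below not to overlap, that has no background beside it. The median of the 7 mean changes was -0.22, against a median of 0.01 in both pairs over all 1700-bp tiles of the genome.

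HXT2, a high-affinity transporter, held 931 and 1045 read centres at 0 h and 685 and 737 at 3 h in H3 shutoff replicates 1 and 2. The groups did not overlap, and the log2 change was -0.47 ± 0.04 (SD, n = 2 pairs). In wildtype it held 1127 read centres at 0 h and 1245 at 3 h, a log2 change of 0.14 with a 95% counting interval of 0.03 to 0.26.

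HXT4, a transporter of low-glucose medium, held 970 and 1154 read centres at 0 h and 735 and 752 at 3 h in H3 shutoff. Both 3 h libraries lay below both 0 h libraries, with a log2 change of -0.51 ± 0.15 (SD, n = 2 pairs). The wildtype count went from 1247 to 1043, a log2 change of -0.26 (-0.38 to -0.14), so that HXT4 was lower at 3 h in all 3 pairs.

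HXT3, a low-affinity transporter, held 1128 and 1251 read centres at 0 h and 901 and 923 at 3 h in H3 shutoff, again without overlap. The log2 change was -0.38 ± 0.08 (SD, n = 2 pairs). In wildtype it held 1420 and then 1210 read centres, a log2 change of -0.23 (-0.34 to -0.12). HXT3 and HXT4 were thus lower at 3 h in both strains, and HXT2 in H3 shutoff only, a difference between strains that did not pass the test given further on.

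HXT1, the transporter of high glucose, gave opposite signs in the H3 shutoff pairs, from 693 to 820 read centres in replicate 1 and from 862 to 751 in replicate 2. The mean log2 change was 0.02 ± 0.31 (SD, n = 2 pairs). In wildtype it went from 1054 to 684, a log2 change of -0.62 (-0.76 to -0.48), the only coding region at least 1.5-fold lower in that pair. Of all 1700-bp tiles, 1.64% were that much lower in wildtype. At 3 h the wildtype count lay below those of both H3 shutoff libraries, whereas at 0 h it lay above both.

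HXT5, the transporter of slow growth, held 816 and 991 read centres at 0 h and 712 and 849 at 3 h in H3 shutoff. The times overlapped because replicate 2 held more reads at both, and the log2 change within pairs was -0.21 ± 0.02 (SD, n = 2 pairs). Wildtype went the other way, from 973 to 1196 read centres, a log2 change of 0.30 (0.17 to 0.42).

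HXT7 and HXT6 followed HXT5 in direction. HXT7 held 1740 and 2018 read centres at 0 h and 1562 and 1703 at 3 h in H3 shutoff, and 2014 and 2379 in wildtype. HXT6 held 247 and 326 read centres at 0 h and 230 and 259 at 3 h in H3 shutoff, and 330 and 400 in wildtype. Summed over both copies, which avoids the question of assignment, the log2 changes of H3 shutoff replicates 1 and 2 were -0.15 and -0.26, and that of wildtype was 0.25.

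**Figure D3:**
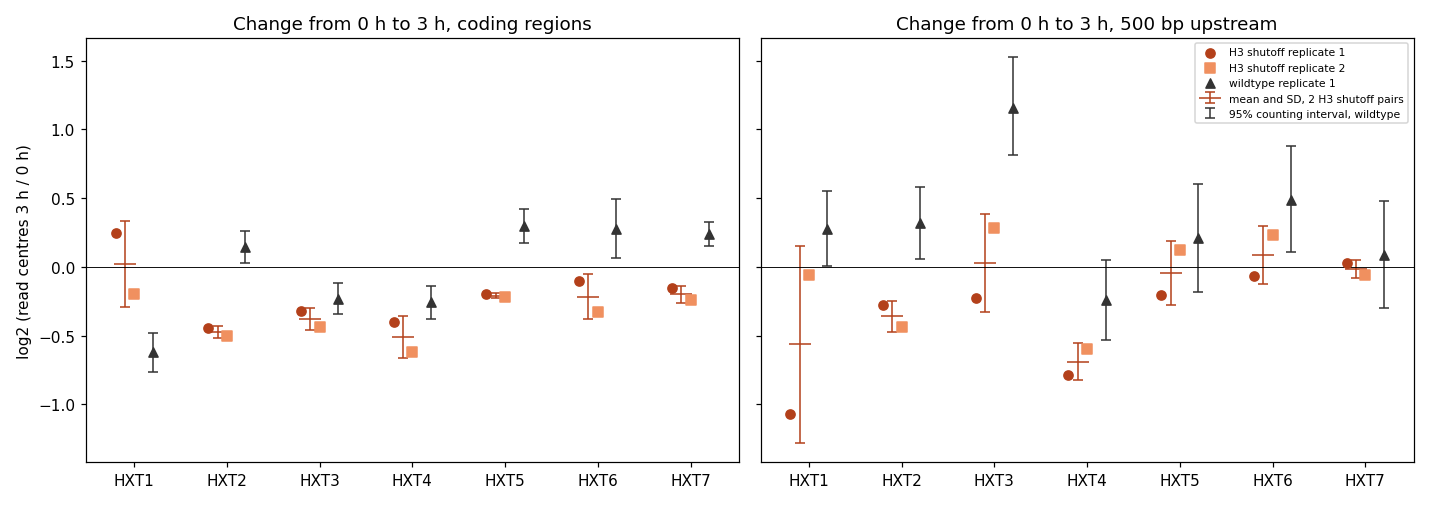
Log2 ratio of read centres at 3 h over 0 h for the coding regions (left) and the 500 bp upstream (right) of the 7 genes. Orange points are the H3 shutoff pairs with their mean and SD (n = 2), dark triangles the wildtype pair with its 95% counting interval. Over coding regions HXT2, HXT3 and HXT4 lie lowest in H3 shutoff, while HXT1 is lowest in wildtype at -0.62 and HXT2, HXT5, HXT6 and HXT7 are above 0 there.

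Replicates set the scale for these values. Between the H3 shutoff replicates, replicate 2 over replicate 1, the coding regions differed by 0.15 to 0.40 on the log2 scale at 0 h and by -0.13 to 0.25 at 3 h, and over all 1700-bp tiles the SD of that difference was 0.23 and 0.16. With 2 libraries against 2, a two-sided exact permutation test of a single region cannot go below p = 0.333. The test was therefore a fit of all 7070 regions of about 1700 bp with edgeR (quasi-likelihood test, replicate pair as a block, Benjamini-Hochberg adjustment), which was chosen after the counts above were seen. It called 3 of the 7 genes, all lower, beside 6.65% of all regions called lower, and no gene higher. HXT4 had a log2 change of -0.52 (adjusted p = 0.0014), HXT2 of -0.49 (adjusted p = 0.0025) and HXT3 of -0.40 (adjusted p = 0.030). HXT5 was at -0.22 (adjusted p = 0.21), HXT7 at -0.21 (adjusted p = 0.49), HXT6 at -0.23 (adjusted p = 0.59) and HXT1 at 0.01 (adjusted p = 0.98).

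DESeq2 in place of edgeR called none of the 7, with adjusted p = 0.14 for HXT4, 0.18 for HXT2 and 0.29 for HXT3, and only 19 regions lower in the genome. Counting each distinct interval once, edgeR called HXT7 as well (log2 change -0.17, adjusted p = 0.029), with 389 of all 7070 regions called lower. Single-pair changes counted that way are relative to all distinct intervals of the library. In H3 shutoff their means were -0.38 for HXT2, -0.29 for HXT4 and -0.25 for HXT3. The wildtype changes were smaller too, at -0.31 for HXT1, -0.0543 for HXT4 and -0.00243 for HXT3, and the rises of wildtype became 0.12 for HXT5, 0.03 for HXT7, 0.02 for HXT2 and -0.00408 for HXT6. The scaling factors of the nucleosome counts described next raise every H3 shutoff change by 0.16 or 0.21, which leaves HXT2, HXT3 and HXT4 at -0.29, -0.20 and -0.32 but HXT5, HXT6 and HXT7 at -0.03, -0.03 and -0.02.

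The second comparison asked whether the change differed between the strains, since the sugar changed in both. In edgeR's test of that difference none of the 7 coding regions passed, beside 4.87% of all regions, and 3 had an unadjusted p under 0.05. The nearest were HXT2, at -0.64 in H3 shutoff relative to wildtype (adjusted p = 0.056), and HXT1, at 0.62 (adjusted p = 0.063). HXT5 was at -0.53 (adjusted p = 0.12). Wildtype has 1 pair, so its replicate spread was taken from H3 shutoff, and a p above the threshold does not show that the strains changed alike.

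Single nucleosomes were followed over the same loci, each as the read centres within 50 bp of a consensus centre called on all libraries pooled. The edgeR test called 2 of the 126 lower, beside 2.95% of all nucleosomes tested, and 0 higher, beside 3.55%. An unadjusted p under 0.05 was found for 24 (19.0%), of which 20 were lower, and for 11912 of all nucleosomes (22.2%), of which 5746 were lower. DESeq2 called none. The median fitted log2 change was -0.15 over the 126 and 0.02 over all nucleosomes.

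Both nucleosomes called lie in the first part of the HXT2 coding region. The one centred at 288429, 351 bp into the gene, held 118 and 150 read centres at 0 h and 43 and 53 at 3 h in H3 shutoff, against 144 and 168 in wildtype. Its 3 h counts were below each of the other 4, and the fitted log2 change was -1.29 (adjusted p = 0.0026, edgeR). The one before it, centred at 288259, 181 bp into the gene, held 74 and 118 read centres at 0 h and 32 and 43 at 3 h, against 124 and 100 in wildtype (log2 change -1.15, adjusted p = 0.013, edgeR). Both calls were lost with DESeq2 (adjusted p = 0.81 and 0.91), with a window of 73 bp in place of 50 bp, and with each distinct interval counted once. These settings called only 1, 0 and 4 nucleosomes lower in the whole genome. The call at 288259 was also lost without the replicate block (adjusted p = 0.059).

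The lower counts over HXT2 were uneven along the gene. Beyond these nucleosomes, those at 521 and 695 bp went from 82 and 81 to 43 and 49 read centres and from 77 and 92 to 39 and 57 in the H3 shutoff replicates. The one at 865 bp held 66 and 96 read centres at 0 h and 52 and 97 at 3 h. In H3 shutoff all 8 coding nucleosomes of HXT2 were lower at 3 h in replicate 1 and 7 of 8 in replicate 2. In wildtype 3 of 8 were lower, none of them 1.5-fold. These counts are unscaled, and over all nucleosomes the median change was -0.15 and -0.19 in the H3 shutoff replicates and -0.02 in wildtype. The share of all nucleosomes that were lower by any amount was not counted.

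**Figure D4:**
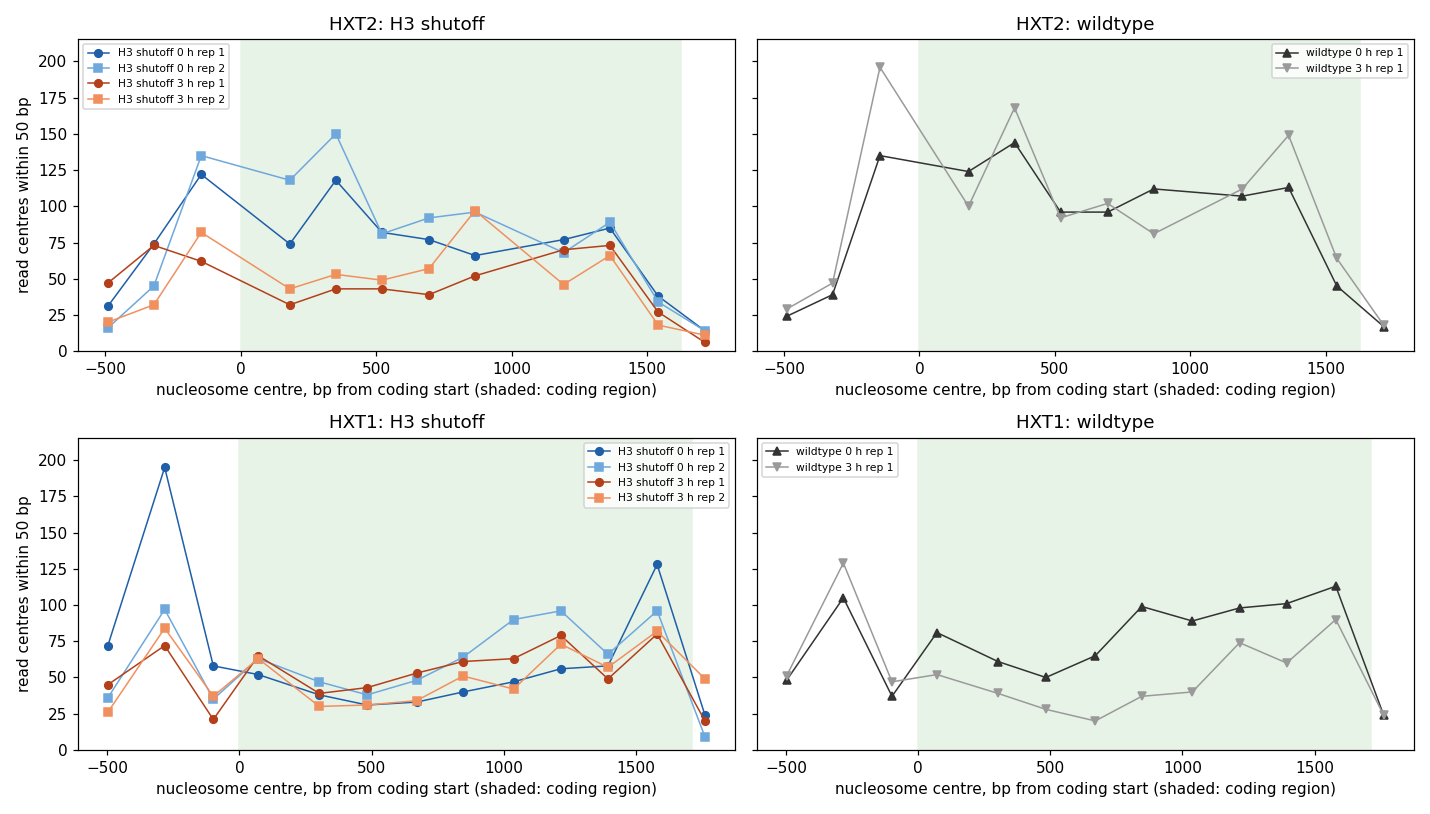
Read centres within 50 bp of each consensus nucleosome of HXT2 (top) and HXT1 (bottom), by distance of its centre from the coding start, for H3 shutoff (left) and wildtype (right). Each line is 1 library and the coding region is shaded. Over HXT2 the 3 h libraries of H3 shutoff lie furthest below the 0 h libraries at 181 and 351 bp into the gene, and over HXT1 the wildtype 3 h library lies below the wildtype 0 h library at all 9 coding nucleosomes.

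Over HXT4 the lower counts were spread along the whole gene. All 9 coding nucleosomes were lower at 3 h in both H3 shutoff replicates, 3 and 8 of them by at least 1.5-fold, and 8 of 9 were lower in wildtype, 2 of them by that much. HXT3 was similar, with 8 and 9 of 9 coding nucleosomes lower in the H3 shutoff replicates and 9 of 9 in wildtype. None of these passed the test singly. Of all nucleosomes tested, 26.5% and 24.6% were at least 1.5-fold lower in H3 shutoff replicates 1 and 2, and 13.1% in wildtype.

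Over HXT1 all 9 coding nucleosomes were lower at 3 h in wildtype, 7 of them by at least 1.5-fold, beside 13.1% of all nucleosomes. The nucleosome 846 bp into the gene went from 99 to 37 read centres in wildtype, and the next towards the start, at 670 bp, went from 65 to 20. In H3 shutoff the same nucleosomes held 40 and 64 read centres at 0 h and 61 and 51 at 3 h, and 33 and 48 at 0 h and 53 and 34 at 3 h. The H3 shutoff libraries at 0 h were thus already below the wildtype library at 0 h, and within H3 shutoff the 0 h and 3 h counts overlapped. Lower 0 h counts were not particular to HXT1. Over whole coding regions both H3 shutoff 0 h libraries lay below wildtype at 0 h for 5 of the 7 genes: HXT1, HXT2, HXT3, HXT4 and HXT6.

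HXT5 showed both directions within 1 gene in wildtype. The nucleosomes in its last part, at 1665, 1327 and 1008 bp, went from 76 to 142, from 88 to 155 and from 26 to 72 read centres. The nucleosome at 431 bp went from 115 to 62. In H3 shutoff the same 4 differed less between the times, for example 89 and 88 read centres at 1665 bp in replicate 2, though 82 and 50 in replicate 1.

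In wildtype, 28 of the 126 nucleosomes (22.2%) were at least 1.5-fold higher at 3 h, beside 10.6% of all nucleosomes, and 15 (11.9%) were that much lower, beside 13.1%. In H3 shutoff, 45 (35.7%) were at least 1.5-fold lower in replicate 1, beside 26.5% of all, and 37 (29.4%) in replicate 2, beside 24.6%. Neighbouring nucleosomes share reads and genes, and these shares carry no test.

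Of the nucleosomes higher in wildtype, 10 lay nearest HXT6, 6 nearest HXT5, 5 nearest HXT7 and 4 nearest HXT3, and none nearest HXT1. A nucleosome between HXT7 and HXT6, at -1765 bp from the HXT7 coding start, went from 145 to 280 read centres in wildtype, and from 126 to 95 and from 133 to 93 in the H3 shutoff replicates. The one at the end of the HXT7 coding region went from 156 to 274 in wildtype, while H3 shutoff gave 122 and 150 read centres for replicate 1 and 174 and 151 for replicate 2. The whole stretch of 3679 bp between HXT7 and HXT6 held 1503 and 1830 read centres in wildtype at 0 h and 3 h, 1504 and 1284 in H3 shutoff replicate 1 and 1432 and 1199 in replicate 2. That stretch had the signs of the coding regions beside it, higher in wildtype and lower in both H3 shutoff pairs. With 1 read per distinct interval the wildtype change of the stretch was -0.05, so that its sign turned. For the difference between strains no nucleosome of the loci passed edgeR's test, beside 0.153% of all. An unadjusted p under 0.05 was found for 10 of the 126 (7.94%), beside 12.7% of all, and the smallest adjusted p was 0.14.

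A binomial classification modelled on that of the study was then applied to single pairs, without the agreement between replicates that the study also asked for. It compares the read centres of a matched nucleosome between 2 libraries with a binomial test, so it speaks of those libraries and not of the conditions. In H3 shutoff replicate 1, 6 of 122 matched nucleosomes of the loci were reduced, beside 4.69% of all, and 0 were retained at a higher share, beside 1.16%. In replicate 2, 2 of 113 were reduced, beside 3.00%, and 1 was retained, beside 0.701%. In wildtype, 1 of 111 was reduced, beside 0.363%, and 3 were retained, beside 0.992%. Replicate 2 of H3 shutoff was also set against replicate 1 at the same time. At 0 h this gave 643 reduced and 155 retained of 49696 in the genome, against 174 and 475 of 47879 for wildtype. In the loci it gave 1 reduced of 119, the HXT1 nucleosome at -283 bp, which was also reduced in H3 shutoff replicate 1. At 3 h it gave 129 and 83 of 52822, and 0 of 118 in the loci.

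A nucleosome in the middle of HXT4, about 835 bp into the gene, was reduced in both replicates, from 122 to 53 and from 151 to 63 read centres at the deposited centres. The others were reduced in 1 replicate only. In wildtype the reduced nucleosome was the one of HXT1 at 847 bp described above, and the retained ones were the nucleosome at the end of HXT7, the one between HXT7 and HXT6, and one 84 bp before HXT3, which went from 9 to 51 read centres. With reads counted once per distinct interval none of these classes was left in any pair. That setting left few in the whole genome: 3 and 2 reduced in H3 shutoff replicates 1 and 2, and 2 retained in wildtype.

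The promoters are where Rgt1 and Mig1 act, and the 500 bp before each coding start were counted in the same way. No upstream window was fitted singly. Between the H3 shutoff replicates, replicate 2 over replicate 1, these windows differed by -1.04 to 0.07 on the log2 scale at 0 h. At 3 h they differed by -0.60 to 0.26. Over all 500-bp tiles the SD of that difference was 0.40 at 0 h and 0.25 at 3 h. HXT4 had the lowest mean change in H3 shutoff, with 211 and 221 read centres at 0 h and 122 and 146 at 3 h. These did not overlap, at a log2 change of -0.69 ± 0.13 (SD, n = 2 pairs), while wildtype went from 215 to 182 (-0.24, counting interval -0.53 to 0.05). HXT2 held 243 and 224 read centres at 0 h and 200 and 165 at 3 h (-0.36 ± 0.11), and 223 and 278 in wildtype. With 1 read per distinct interval the H3 shutoff changes were -0.28 for HXT4 and -0.15 for HXT2, and with the scaling factors of the nucleosome counts -0.51 and -0.18.

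HXT1 shows what 1 library can do to such a value. Its upstream window held 367 read centres in H3 shutoff at 0 h in replicate 1, but 178 in replicate 2, 174 and 171 at 3 h, and 204 and 247 in wildtype. The log2 change was therefore -1.07 in replicate 1 and -0.06 in replicate 2. The excess was not confined to 1 nucleosome. In replicate 1 at 0 h the nucleosome 283 bp before the gene held 195 read centres, against 72 to 129 in the other 5 libraries. The one at -99 bp held 58 in that library, against 21 to 47 in the others. The nucleosome of the window furthest from the gene held 72, against 26 to 51. Only 38.4% of the reads of the window lay on distinct intervals in that library, and 42.7% in replicate 2 at 0 h.

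HXT3 had the largest upstream change in wildtype, from 98 to 220 read centres, a log2 change of 1.16 (0.82 to 1.53), or 0.63 with 1 read per distinct interval. It was the only upstream window at least 1.5-fold higher, beside 3.28% of all 500-bp tiles. In H3 shutoff the window went from 215 to 184 and from 147 to 179, so all 4 libraries lay between the 0 h and the 3 h value of wildtype. All 3 nucleosomes of the window were higher in wildtype, from 17 to 51, from 28 to 74 and from 37 to 81 read centres. The coding region of HXT3 was lower in the same pair, so that its upstream and coding parts had opposite signs there.

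The upstream windows of HXT5, HXT6 and HXT7 held 92 to 149 read centres in all 6 libraries, with mean H3 shutoff changes of -0.04, 0.08 and -0.01. Their SDs of 0.23, 0.21 and 0.06 over 2 pairs exceeded these unscaled means, which became 0.14, 0.27 and 0.17 with the scaling factors of the nucleosome counts. In wildtype HXT6 went from 98 to 138 (0.49, 0.11 to 0.88), HXT5 from 103 to 119 and HXT7 from 111 to 118, the last 2 with counting intervals that include 0. These intervals leave out replicate spread. The H3 shutoff replicates at 0 h differed by -0.49 over the same HXT6 window, replicate 2 over replicate 1.

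For each promoter a gap was taken as the widest distance between neighbouring deposited nucleosome centres that overlaps the 700 bp before the coding start. Every gene has such a gap by definition. Gaps were 177 to 348 bp wide over all genes and libraries. The narrowest lay close to the read lengths of 158 to 174 bp, so a gap need not be a stretch poor in nucleosomes. For HXT7 the H3 shutoff gap measured 332 and 345 bp before depletion and 281 and 308 bp after 3 h, and the wildtype gap 328 and 318 bp. For HXT6 it measured 275 and 345 bp before depletion and 215 and 279 bp after 3 h, and 342 and 310 bp in wildtype. Besides HXT3, these were the only genes whose gap was narrower at 3 h in both H3 shutoff pairs. The change in width was -44.0 ± 9.90 bp for HXT7 and -63.0 ± 4.24 bp for HXT6 (SD, n = 2 pairs), and for HXT6 the times overlapped. With more than 20 read centres required of a nucleosome the changes were 290 bp for HXT6 and -148 bp for HXT7.

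For the other genes the replicates disagreed by more than the change. The HXT2 gap of H3 shutoff measured 177 and 326 bp before depletion and 214 and 181 bp after 3 h, and that of wildtype 343 and 348 bp. The HXT1 gap was 211 to 220 bp in all H3 shutoff libraries and in wildtype went from 339 to 216 bp. The gap of HXT5 measured 245 and 331 bp before depletion, 282 and 271 bp after 3 h, and 334 and 331 bp in wildtype. Widths jump when a weak nucleosome inside the gap is called or missed, so the emptiest 100 bp were counted too. They held 0 to 13 read centres in every library and gene, and 0 or 1 upstream of HXT5 in all 6.

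**Figure D5:**
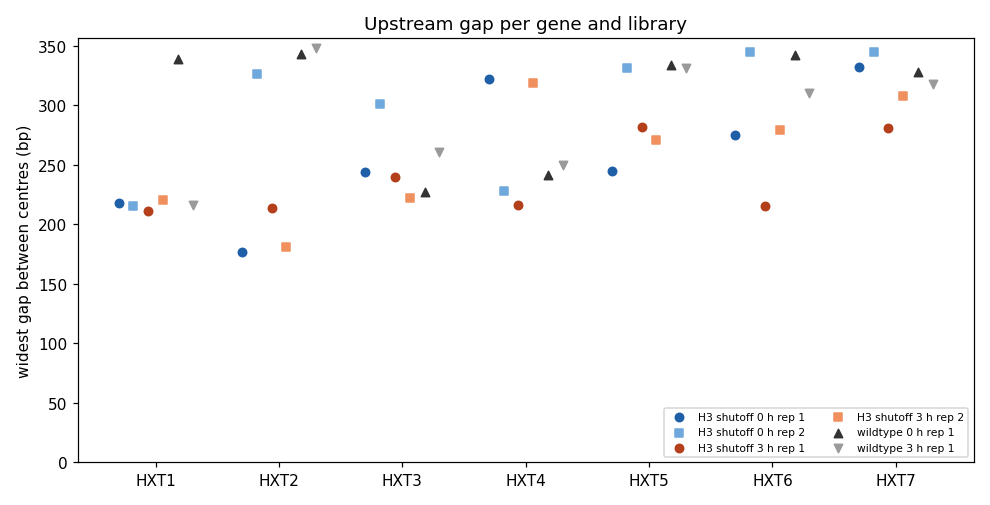
Width of the widest gap between neighbouring nucleosome centres upstream of each gene, in bp, 1 point per library. HXT7 stays between 281 and 345 bp in all libraries, while the HXT2 gap takes values from 177 to 348 bp.

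The nucleosomes on either side of the gap, on the consensus of all libraries, were read one by one. The gene-side one lay inside the coding region for HXT2, HXT3, HXT5 and HXT6, at 181, 116, 158 and 191 bp. For HXT1, HXT4 and HXT7 it lay before the coding start, at -283, -447 and -432 bp, so the borders are not alike between genes. For HXT2 the far one, 146 bp before the gene, held 122 and 135 read centres at 0 h and 62 and 82 at 3 h in H3 shutoff, and 135 and 196 in wildtype. The one on its gene side is the called nucleosome at 288259. Both borders of the HXT2 gap were thus lower at 3 h in H3 shutoff, only 1 of them past the test.

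For HXT4 the gene-side nucleosome held 68 and 67 read centres at 0 h and 30 and 43 at 3 h in H3 shutoff (66 and 41 in wildtype), and the far one 45 and 53 and then 39 and 35 (68 and 54). For HXT3 the gene-side one, which lies 116 bp inside the gene, held 85 and 88 and then 52 and 54 (116 and 111). The far one held 42 and 31 and then 32 and 39 (17 and 51). On the HXT3 gap, then, the side facing the gene was lower and the other was not.

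For HXT1 the gene-side nucleosome is the one at -283 bp given above, and the far one held 72 and 36 read centres at 0 h and 45 and 26 at 3 h (48 and 51 in wildtype). For HXT5 the gene-side one held 31 and 48 and then 35 and 31 (54 and 83), and the far one 35 and 23 and then 25 and 26 (31 and 23). For HXT7 the gene-side one held 27 and 17 and then 31 and 27 (15 and 24), and the far one 87 and 94 and then 60 and 54 (131 and 135). For HXT6 the gene-side one held 16 and 19 and then 7 and 12 (12 and 14), and the far one 48 and 28 and then 37 and 43 (33 and 71). Of all these bordering nucleosomes, none but the one of HXT2 passed the test in H3 shutoff.

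The spread of read centres around each deposited centre measures how sharply a nucleosome is placed. For HXT4 the median over its coding nucleosomes went from 34.9 to 39.7 bp and from 32.4 to 40.2 bp in the H3 shutoff replicates, and from 28.8 to 31.1 bp in wildtype. Over the genome the median went from 36.4 to 38.1 bp, from 35.1 to 40.0 bp and from 31.0 to 30.5 bp. The change of HXT4 in H3 shutoff was 6.26 ± 2.08 bp (SD, n = 2 pairs) and that of the genome 3.30 ± 2.34 bp. Within each of the 3 pairs HXT4 changed by more than the genome, at 4.78 against 1.64 bp, 7.73 against 4.95 bp and, in wildtype, 2.32 against -0.46 bp, which carries no test. HXT2 changed by 2.91 ± 0.23 bp and HXT3 by 3.28 ± 0.58 bp, close to the genome, and HXT5 by -2.38 ± 0.55 bp.

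Matched centres moved by a median of 12 bp genome-wide in each H3 shutoff pair and by 4 bp in wildtype. For HXT2 the medians of replicates 1 and 2 were 42.5 and 8 bp, and for HXT4 29 and 15 bp. Over HXT5 it was 19.5 and 18.5 bp, and 54 bp in wildtype. Each of these medians rests on 6 to 8 nucleosomes, and between the H3 shutoff replicates at 3 h, where no change was made, HXT1 gave 29 bp, HXT2 17 bp, HXT4 7.5 bp and HXT5 2 bp. At 0 h the replicates gave 2 to 7 bp for the 7 genes.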

How the data were processed

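The libraries were 4 of H3 shutoff and 2 of wildtype. As the authors describe, reads were aligned to sacCer1 with Bowtie (version 0.12.6 in the submitters' processing notes), extended to the mean fragment length of the library, cleared of ribosomal DNA and drawn at random to equal depth. The deposited intervals hold 1 line per extended read. The deposited lists of called nucleosomes give raw counts of read centres, not normalized by the authors, with the centre of each nucleosome and the SD of its read centres in bp. The authors ran the aligner at its defaults, under which Bowtie reports 1 alignment for a read that matches both HXT6 and HXT7.

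The centre of each interval was taken as the read centre. Coding lengths came from the gene table of RefSeq (R64), whose coordinates were not used. Consensus nucleosomes were called on the pooled libraries (Gaussian smoothing, SD 10 bp, cut at 3 SD, protected length 169 bp) and kept where the mean over libraries reached 10 read centres. Their counts within 50 bp were fitted with edgeR (4.0.16, R 4.3.3) on TMM-scaled totals, with DESeq2 (1.42.0) as an alternative. The fit over 1700-bp regions put the 7 coding regions in place of the tiles they overlap, and was added after their counts were seen. Changes of a single pair are log2(count + 1) differences of unscaled counts. With 1 read per distinct interval they are instead relative to the library's total of distinct intervals, which differs between libraries. For classes and gaps, deposited nucleosomes with more than 5 read centres were used, matched in a pair by at least 30 bp of overlap and classed at a Bonferroni-corrected one-sided p under 0.01. Counting intervals are exact binomial (95%). The tests were tried on simulated data.

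Replicate pairs are a block in the fits because 1 culture was sampled at both times. Deviations of the 2 replicates from their group means gave r = -0.12 between the times over all nucleosomes and 0.10 over the loci, so the block rests on the design. Replicates of H3 shutoff at 0 h and 3 h differed over the loci by 3.34 and 2.13 times the counting variance, and reads on identical intervals can add to this.

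Described one by one were all 7 genes, the nucleosomes beside each upstream gap and each nucleosome of the loci past the test, and others were picked as examples after their values were seen. The members and lists were chosen with earlier results of these data known. Other genes of glucose sensing were not analysed here, since no positions of the sacCer1 build were at hand for them.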

Additional observations from a re-analysis of the deposited data

Results flagged for a closer look

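In 6 windows, out of 7 coding and 7 upstream ones, both H3 shutoff pairs moved one way and the wildtype pair the other on unscaled counts. The share of all tiles of the genome with such opposite signs was not counted, so 6 has no background beside it. The mean log2 change of H3 shutoff minus that of wildtype was -0.616 over the HXT2 coding region, -0.507 over HXT5, -0.493 over HXT6 and -0.44 over HXT7. It was -0.84 over the 500 bp upstream of HXT1 and -0.676 upstream of HXT2. The difference was not tested for the upstream windows. For the coding regions edgeR gave adjusted p = 0.056 for HXT2, 0.12 for HXT5, 0.47 for HXT6 and 0.44 for HXT7, so none passed. The opposite signs were lost with 1 read per identical interval for the HXT6 coding region (wildtype -0.00408), the HXT2 upstream window (wildtype -0.0633) and the HXT1 upstream window (H3 shutoff -0.58 and 0.21). With the scaling factors of the nucleosome counts they were lost for HXT6 and HXT7, whose H3 shutoff replicate 1 came to 0.06 and 0.00418, and for the HXT1 upstream window, whose replicate 2 came to 0.15. The HXT1 upstream value rests on 1 library: without replicate 1 the H3 shutoff change there was -0.06.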

How the results depend on the processing

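The number of nucleosomes called lower in the loci, 2, was 1 without the replicate block, beside 308 of 53684 in the genome. With tiles of 200 bp it was 1, beside 356 of 59583. It was 0 with DESeq2, with a window of 73 bp or with 1 read per identical interval, settings that called 1, 0 and 4 nucleosomes lower in the whole genome. It did not change with library totals or without the filter on low counts, where the genome held 3088 and 1584. The median log2 change of the nucleosomes of the loci, -0.149, was -0.332 with library totals and -0.113 to -0.275 with 1 replicate left out. The TMM factors of the nucleosome counts raise log2 changes by 0.16 and 0.21 in the H3 shutoff pairs and by 0.03 in wildtype relative to unscaled counts. With them the median change of the coding regions went from -0.217 to -0.0325, with HXT2, HXT3 and HXT4 at -0.29, -0.20 and -0.32, and that of the upstream windows from -0.0417 to 0.142, where HXT5 and HXT7 turned positive. With 1 replicate left out these medians were -0.196 to -0.331 and -0.0576 to -0.224. Upstream windows of 300 and 800 bp gave -0.297 and -0.194. The median change in gap width, -41.5 bp, was 0.5 bp with more than 20 read centres required, and -60.0 to -7.0 bp with 1 replicate left out. Reduced nucleosomes numbered 1 of 122 and 0 of 113 in H3 shutoff replicates 1 and 2 with TMM-scaled totals. In the genome they numbered 1507 of 51101 and 577 of 49096. With 1 read per identical interval both reduced and retained ones numbered 0 in each pair, where the genome held at most 3 reduced and 2 retained. The 3 coding regions called lower were 0 with DESeq2, were 3 without the replicate block (smallest adjusted p = 0.021) and 4 with 1 read per identical interval. These settings called 19, 363 and 389 of the 7070 regions lower. With 1 read per identical interval, the wildtype changes shrank to -0.307 for HXT1, -0.00243 for HXT3 and -0.0543 for HXT4. The cause of these shifts was not tested. With 2 H3 shutoff pairs and 1 wildtype pair, which of these changes were called depended on the setting. What size of change the design can call was not measured.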
